A study of Rattus norvegicus with 6 samples.

Results

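Interferon-stimulated genes are switched on when a cell senses interferon, and their products restrict viruses and tune immunity. The 9 genes described here, Irf7, Irf1, Mx1, Mx2, Isg15, Oas1a, Ifit2, Ifit3 and Rsad2, were given by symbol and taken as the entries of the expression table that carry those symbols. All 9 of the 9 symbols were found among 19616 genes, and all 9 passed a filter on low values that left 14864 genes for testing. Expression was compared in whole liver between male Sprague-Dawley (SD) rats with liver fibrosis (FL2, FL5 and FL12) and control rats (CL5, CL6 and CL7), with 1 library for each of 3 rats in a group. FL rats had received intraperitoneal carbon tetrachloride (CCl4) in olive oil for 5 weeks, and CL rats had received olive oil alone. Their age is not given in the sources used here. CCl4 is a poison that is activated in hepatocytes and scars the liver when given repeatedly, so the groups model toxic fibrosis, not infection. RNA was taken from whole tissue after removal of ribosomal RNA, and values are FPKM, fragments per kilobase of transcript, scaled to the mapped fragments of each library.

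Type I interferons bind a receptor on nearly every cell type, whose kinases Jak1 and Tyk2 phosphorylate STAT proteins, Stat2 among them. With Irf9 these form a complex that enters the nucleus and binds interferon-stimulated response elements in the promoters of target genes. Interferon gamma, made mainly by T and NK cells, acts through a receptor of its own and another promoter element, the gamma-activated site. In the liver both hepatocytes and Kupffer cells, the resident macrophages, answer to interferon, and Irf7 amplifies the response by driving more interferon production.

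The labelled tissue was checked first. The hepatocyte marker albumin (Alb) had 33392, 31431 and 31992 FPKM in rats CL5, CL6 and CL7, and it had 24149, 25052 and 25209 FPKM in rats FL2, FL5 and FL12. All libraries were therefore rich in hepatocyte RNA. The 9 hepatocyte markers together summed to 53020, 50380 and 51020 FPKM in the CL rats and 45450, 44760 and 43540 FPKM in the FL rats. Without Alb the sums overlapped, at 19620, 18950 and 19030 FPKM in the CL rats and 21310, 19710 and 18330 FPKM in the FL rats. As deposited, the CL and FL values did not overlap in 6 of the 9, with Alb, Ttr, Apob and Hnf4a lower and Tf and Apoa1 higher in FL, where 40.5% of all genes tested did not overlap. By limma 0 of the 9 passed the adjusted threshold and 1 had an unadjusted p under 0.05. For Alb limma's fitted error, an SE of 0.98 on the log2 scale, was far wider than the spread of the rats, so that count says little for genes of such high level. Of the 9 estimates 5 were positive, 2 after median scaling and 6 after quantile normalization. For any difference in whole liver, fewer cells of a type and less RNA per cell cannot be told apart.

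None of the 9 interferon-stimulated genes was called higher or lower in fibrotic liver. A gene was called where limma's adjusted p was under 0.05 and the fold change at least 2. By that rule 9.29% of all genes tested were higher in FL (1381 genes) and 0.935% lower (139 genes). Also 0 of the 9 reached an unadjusted p under 0.05 in limma, and their adjusted p ran from 0.181 to 0.957. The CL and FL values overlapped in all 9, so 0 of 9 separated the groups, against 40.5% of all genes tested. The count of calls was also 0 of 9 under each alternative setting with all 6 rats and with any other rat left out, and it was 1 of 9, Mx1, when FL12 was left out. Without FL12, Mx1 had a log2 fold change of 1.04 ± 0.25 (SE) and a limma adjusted p of 0.0442, where 6.5% of all genes tested were called higher. Over all alternatives the adjusted p of Mx1 ran from 0.0442 to 0.988.

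The rats of the FL group differed from one another in these genes, and 2 libraries stood out. FL12 had the lowest FL value in 7 of the 9 genes, where the share was 24.8% of all genes tested. The exceptions were Ifit2, highest in FL12, and Rsad2, lowest in FL2. CL6 had the lowest CL value in 8 of the 9, all but Ifit3, against 22.2% of all genes tested. These patterns were chosen after the values were seen. Results are therefore given with and without FL12 where it decided them.

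**Figure D1:**
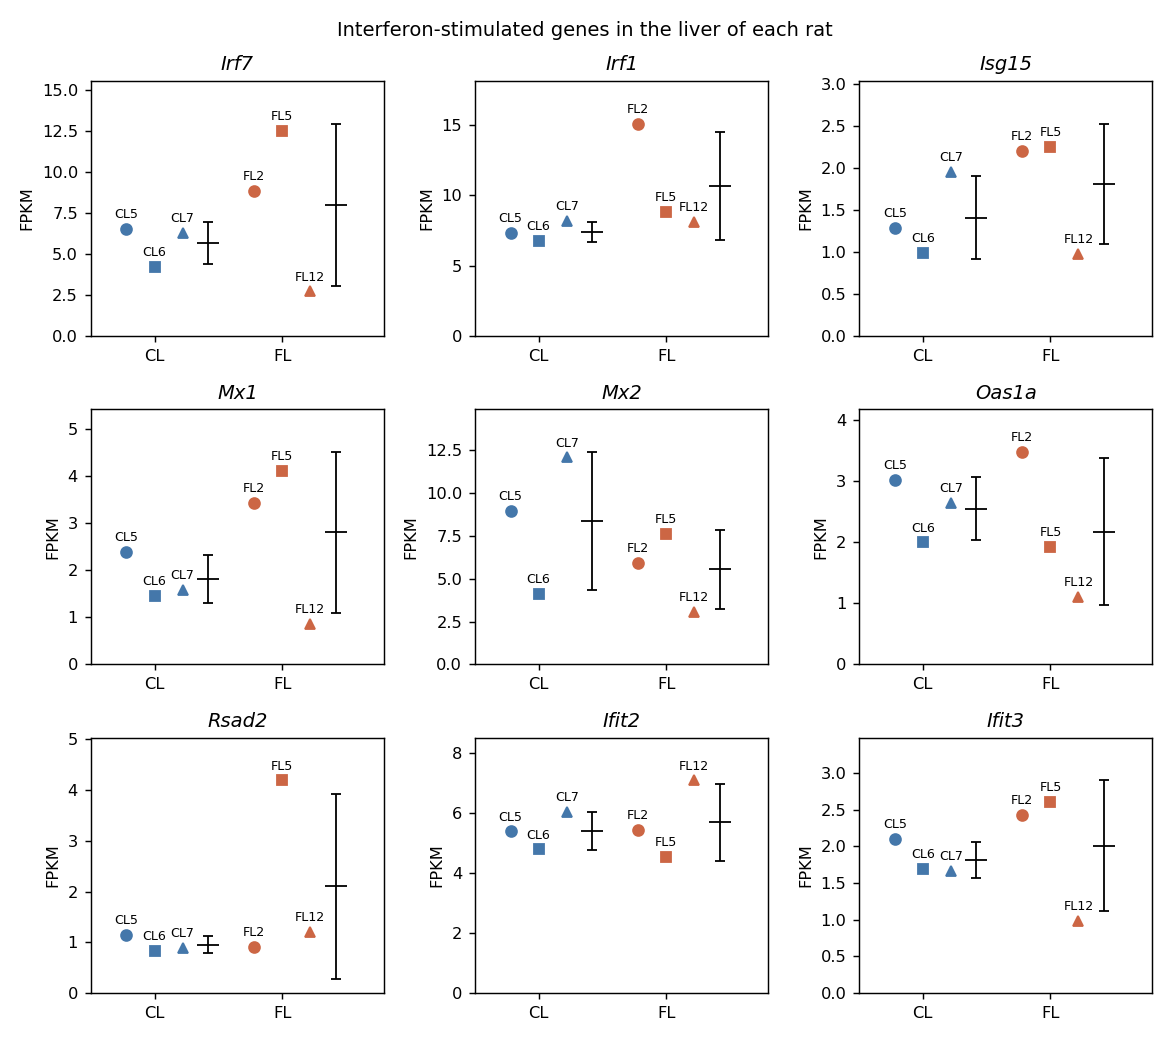
FPKM (vertical axis, from 0) of the 9 interferon-stimulated genes in each control (CL, blue) and fibrotic (FL, orange) rat, with the mean and SD of the 3 rats of each group in black. The groups overlap in all 9 panels, and FL12 is the lowest FL rat in 7 of them.

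Irf7 (ENSRNOG00000017414, chromosome 1), the transcription factor that amplifies type I interferon production, had 6.54, 4.20 and 6.26 FPKM in rats CL5, CL6 and CL7, and it had 8.83, 12.5 and 2.71 FPKM in rats FL2, FL5 and FL12. FL2 and FL5 were above every control, and FL12 was below every control. The means were 5.67 ± 1.28 FPKM in CL and 8.01 ± 4.94 FPKM in FL (SD, n = 3 each). The log2 fold change of FPKM + 0.1 was 0.27 ± 0.50 (SE), with a 95% interval of -0.88 to 1.41 and a limma adjusted p of 0.727. That scale, used for all fold changes here, understates the change of genes with low values. Without FL12 the Irf7 estimate was 0.90, with a limma adjusted p of 0.0593, and without FL5 it was -0.18. Its adjusted p ran from 0.0593 to 0.982 over the alternatives.

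Irf1 (ENSRNOG00000008144, chromosome 10) is a transcription factor that interferon gamma and inflammatory cytokines induce. It had 7.30, 6.73 and 8.16 FPKM in the CL rats and 15.1, 8.83 and 8.09 FPKM in rats FL2, FL5 and FL12. FL2 alone was far above the controls, while FL12 lay just under the highest of them, CL7. Means were 7.40 ± 0.72 FPKM in CL and 10.7 ± 3.85 FPKM in FL (SD, n = 3 each). Its mean log2 difference, FL against CL, was 0.47 ± 0.23 (SE, 95% interval -0.06 to 1.0) and the limma adjusted p was 0.181. Its unadjusted p of 0.0743 in limma was the lowest of the 9. A rise of up to 2-fold thus lay within the interval, and almost no fall. Without FL2 the estimate was 0.19.

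Isg15 (ENSRNOG00000021802, chromosome 5) encodes a ubiquitin-like protein that is joined to other proteins during the interferon response. The CL rats had 1.29, 0.99 and 1.95 FPKM, and FL2, FL5 and FL12 had 2.20, 2.25 and 0.98 FPKM. As for Irf7, FL2 and FL5 exceeded all controls and FL12 lay under all of them, here by a narrow margin to CL6. The log2 fold change was 0.30 ± 0.36 (SE, 95% interval -0.53 to 1.13), with a limma adjusted p of 0.575. Without FL12 the estimate was 0.67, and it was 0.09 without CL6, 0.11 without FL5 and 0.13 without FL2.

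Mx1 (ENSRNOG00000001959, chromosome 11) and Mx2 (ENSRNOG00000001963, chromosome 11) encode dynamin-like GTPases that block the growth of viruses. Mx1 had 2.40, 1.45 and 1.59 FPKM in the CL rats and 3.43, 4.12 and 0.87 FPKM in rats FL2, FL5 and FL12. Again FL2 and FL5 were above every control and FL12 below. On the log2 scale its fold change was 0.38 ± 0.52 (SE, 95% interval -0.81 to 1.57) with a limma adjusted p of 0.627. Without FL12 the estimate was 1.04 and Mx1 was called, while without FL5 it was -0.02. Mx2 had another pattern, with 8.95, 4.12 and 12.1 FPKM in the CL rats and 5.94, 7.62 and 3.08 FPKM in the FL rats. Its values were spread almost 3-fold within the controls, and FL12 was again the lowest. The log2 fold change of Mx2 was -0.55 ± 0.43 (SE, 95% interval -1.55 to 0.45), with a limma adjusted p of 0.393. Without FL12 the estimate was -0.18, without CL7 -0.22 and without CL6 -0.99. The 2 genes are similar in sequence, so reads that match both could have been lost or assigned to either, and their values are uncertain to that extent.

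Oas1a (ENSRNOG00000001369, chromosome 12) encodes an oligoadenylate synthetase, an enzyme that is activated by double-stranded RNA and makes short adenylate chains. It had 3.02, 2.0 and 2.64 FPKM in the CL rats and 3.48, 1.93 and 1.11 FPKM in rats FL2, FL5 and FL12. FL2 was the highest of all 6 rats, and both FL5 and FL12 were under every control. Its mean log2 difference, FL against CL, was -0.34 ± 0.37 (SE, 95% interval -1.2 to 0.51), with a limma adjusted p of 0.535. Without FL12 the estimate was 0.04, and without FL2 it was -0.74. The rat has several Oas1 genes of similar sequence, so reads may have been divided among them.

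Rsad2 (ENSRNOG00000007539, chromosome 6) encodes viperin, a radical SAM enzyme that makes a chain-terminating nucleotide against viral polymerases. It had 1.14, 0.83 and 0.88 FPKM in the CL rats and 0.91, 4.19 and 1.2 FPKM in rats FL2, FL5 and FL12. FL5 alone was high, FL2 lay among the controls, and FL12 was just above them. Its estimated log2 fold change was 0.77 ± 0.50 (SE, 95% interval -0.37 to 1.91), the largest of the 9, with a limma adjusted p of 0.296. Without FL5 it was 0.14.

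Ifit2 (ENSRNOG00000036604, chromosome 1) and Ifit3 (ENSRNOG00000022839, chromosome 1) encode tetratricopeptide repeat proteins that act on viral RNA and its translation, and the genes are neighbours. Ifit2 had 5.38, 4.78 and 6.04 FPKM in the CL rats and 5.44, 4.54 and 7.08 FPKM in rats FL2, FL5 and FL12. It was the steadiest of the 9 over the FL rats, and the only one with its highest value in FL12. The log2 fold change was 0.06 ± 0.18 (SE, 95% interval -0.37 to 0.48), with a limma adjusted p of 0.847. Ifit3 had 2.10, 1.69 and 1.66 FPKM in the CL rats and 2.43, 2.61 and 0.98 FPKM in the FL rats. It resembled Irf7, with FL2 and FL5 above and FL12 below all controls. The log2 fold change of Ifit3 was 0.03 ± 0.35 (SE, 95% interval -0.77 to 0.83), with a limma adjusted p of 0.957. The Ifit genes are related in sequence, and reads of Ifit1, Ifit2 and Ifit3 may not have been fully separated. Ifit1 itself had 0.03, 0.00 and 2.33 FPKM in rats CL5, CL6 and CL7, and it had 3.87, 2.10 and 0.02 FPKM in rats FL2, FL5 and FL12. It was singled out after its values were seen, since it was near 0 in CL5, CL6 and FL12 and above 2 FPKM in the other rats.

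Compared per length of transcript, the 9 genes were moderately to weakly expressed. By mean FPKM over the 6 rats the order was Irf1 (9.04), Mx2 (6.97), Irf7 (6.84), Ifit2 (5.54), Oas1a (2.36), Mx1 (2.31), Ifit3 (1.91), Isg15 (1.61) and Rsad2 (1.52). Irf1 stood at percentile 77.6 of the mean levels of all genes tested and Rsad2 at percentile 36.4. The values of Irf1, Mx2, Irf7 and Ifit2 over the 6 rats overlapped, as did those of the 5 genes from Oas1a down, so the order within each set is not resolved. The sets overlapped as well, since Irf7 (2.71 FPKM) and Mx2 (3.08 FPKM) in FL12 were under the highest value of Oas1a (3.48 FPKM).

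The intervals show how far these rats bound a change. In 4 genes, Mx2, Ifit2, Oas1a and Ifit3, the 95% limma interval excluded a 2-fold rise, and in 7 genes, all but Mx2 and Oas1a, it excluded a 2-fold fall. For Ifit2 and Ifit3 the whole interval lay within 2-fold in both directions. For Irf7, Mx1, Isg15 and Rsad2 it included a rise of over 2-fold, so a change of that size was neither shown nor bounded. Irf1 reached the limit itself. All these bounds are for the values as deposited and move with the scaling. For Ifit3 the estimate was -0.18 ± 0.36 (SE) after median scaling and -0.43 ± 0.40 (SE) after quantile normalization. The bound on its fall thus does not carry over to quantile normalization.

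In direction 7 estimates were positive and 2, Mx2 and Oas1a, were negative. The median log2 fold change of the 9 was 0.27, beside 0.29 for all genes tested, of which 77.9% had a positive estimate. The table as a whole was thus shifted upward in FL. Median scaling reduced that shift to 0.08 and the median of the 9 to 0.045, while quantile normalization gave -0.045 for all genes and -0.19 for the 9. Relative to the median of all genes tested, the estimates were 0.48 for Rsad2, 0.18 for Irf1, 0.09 for Mx1 and 0.01 for Isg15. The other genes were below it, with -0.02 for Irf7, -0.23 for Ifit2, -0.26 for Ifit3, -0.63 for Oas1a and -0.84 for Mx2. Under quantile normalization the signs of Irf7, Mx1, Isg15, Ifit2 and Ifit3 turned negative, and under median scaling those of Ifit2 and Ifit3. Irf1 and Rsad2 kept a positive and Mx2 a negative sign under all alternatives run for them.

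The spread among the FL rats was wide for these genes. The SD of log2(FPKM + 0.1) over the 3 FL rats had a median of 0.74 in the 9 genes and 0.25 in all genes tested. Over the 3 CL rats the medians were 0.29 and 0.20. All 9 genes had an FL spread above the median of all genes, and in 8 of the 9, all but Mx2, it exceeded their own CL spread, compared with 61.5% of all genes tested. These SDs come from 3 rats each and the difference between groups in spread was not tested.

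The pattern over rats was shared by several genes. In 4 of the 9, Irf7, Mx1, Isg15 and Ifit3, FL2 and FL5 were both above every control and FL12 was below every control, an order that 1.19% of all genes tested showed (177 genes). FL12 was below every control in 6 of the 9 and in 13.7% of all genes tested. FL2 and FL5 were both above every control in 5 of the 9 and in 40.6% of all genes tested. Summed over the 9 genes, the level was 38.1, 26.8 and 41.3 FPKM in rats CL5, CL6 and CL7, compared with 47.8, 48.6 and 26.1 FPKM in rats FL2, FL5 and FL12. The sum was thus lowest in FL12 and next lowest in CL6, 1 rat of each group. The ordering was picked after the values were seen and carries no test.

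The median over the 9 genes moved with several rats. Without FL12 the median log2 fold change of the 9 was 0.64, whereas that of all genes tested was 0.26, and 4 of the 9 had an unadjusted limma p under 0.05. Of these Mx1 alone passed the adjusted threshold. Leaving out FL5 in place of FL12 gave a median of -0.02 for the 9 and 0 genes with an unadjusted p under 0.05. Without CL6 the median was 0.07, with 1 gene at an unadjusted p under 0.05, and without FL2 it was 0.08, with 2 genes. The 3 FL rats therefore did not give 1 common direction for these genes.

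**Figure D2:**
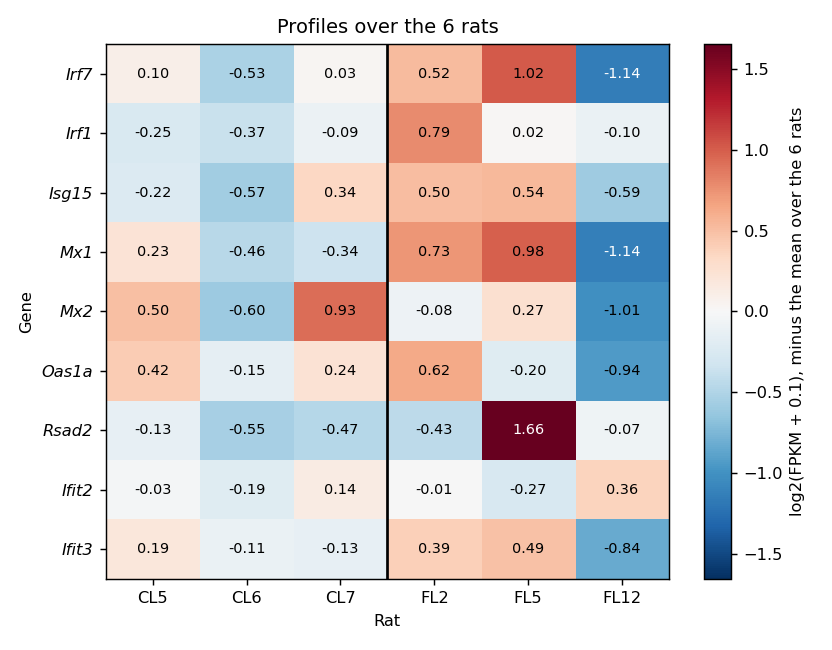
log2(FPKM + 0.1) of each of the 9 genes in each rat, minus the gene's mean over the 6 rats (colour scale and printed values), with controls on the left of the line. FL12 runs from -1.14 for Irf7 and Mx1 to 0.36 for Ifit2, and FL5 reaches 1.66 for Rsad2.

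Among the 9, the closest pair over the 6 rats was Irf7 and Mx1, whose centred log2 profiles differed by a root mean square of 0.18. The farthest pair was Oas1a and Rsad2, at 1.02. Other genes with close profiles were looked for among 10526 genes whose mean reached 1 FPKM, for each member whose profile spanned at least 1 on the log2 scale. Nearest to Irf7 was Slfn3 (root mean square difference 0.17), followed by AC106663.4 (0.285) and Crym (0.30). Slfn3 was also nearest to Mx1 (0.29), before AABR07071891.1 (0.315) and Pdia5 (0.33). Isg15 was closest to Usp18 (0.15), XAF1 (0.15) and Xkr8 (0.18). XAF1 was meant for the list of other antiviral interferon-stimulated genes described below. Its symbol, deposited in capitals, was not matched, so the counts of that list leave it out. Usp18 encodes the protease that removes Isg15 from proteins. Oas1a was closest to Irgm (0.17), AABR07057379.1 (0.19) and Apol9a (0.21). The nearest to Ifit3 were Bcl7a (0.10), Clec4f (0.125) and Saraf (0.15), where Clec4f is a lectin of Kupffer cells. Irf1 was nearest to Marc2 (0.10), Apol3 (0.10) and Nnmt (0.11). For Mx2 the nearest were Oat (0.29), Olr35 (0.30) and Gpm6a (0.35), and for Rsad2 they were Tpm2 (0.28), Emr4 (0.31) and Spats2l (0.32). The profile of Ifit2 spanned only 0.63, so no neighbours were sought. These likenesses over 6 rats are a description.

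Upstream of these genes, the interferons themselves were at the limit of the table. Of 15 ligand symbols 4 were listed, and 0 passed the filter on low values. Ifng, the gene of interferon gamma, was listed at 0.07 FPKM in CL6 and 0.26 FPKM in FL12 and at 0 in the other rats. The type I gene Ifna2 was listed at 0.12 FPKM in CL6 and 0.16 FPKM in FL5 and Ifnb1 at 0.06 FPKM in FL12, with 0 elsewhere. Ifne was listed at 0.05 FPKM in CL7 only. The ligands were therefore not tested between the groups.

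Of 6 receptor chains tested, 1 was called higher in FL and 0 lower, and their median log2 fold change was 0.68 against 0.29 for all genes. The called gene was Ifngr1, the ligand-binding chain of the interferon gamma receptor, with 6.79, 6.88 and 6.90 FPKM in the CL rats and 11.8, 18.65 and 14.2 FPKM in rats FL2, FL5 and FL12. Every FL rat was above every control, and FL12 was no lower than FL2. Its log2 fold change was 1.08 ± 0.17 (SE), with a limma adjusted p of 0.00671. It was under 2-fold, at 0.91, when FL5 was left out, at 0.86 and 0.85 after median scaling and quantile normalization, and at 0.99 with a pseudocount of 1. The call held in the other 10 of 14 alternatives. Ifngr2 (0.71) and Il10rb (0.66) also passed the adjusted threshold but not the 2-fold limit, and are named after their values were seen. Neither passed that threshold after median scaling or quantile normalization, where Ifngr1 was the 1 chain that did. The median of the chains was 0.46 and 0.37 under these settings.

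None of the 6 signal transducers tested was called by limma, with 2 at an unadjusted p under 0.05, and their median was 0.25. The most abundant were Jak1 and Stat2. Jak1 had 43.9, 41.8 and 42.7 FPKM in the CL rats and 41.7, 47.3 and 52.3 FPKM in rats FL2, FL5 and FL12. Stat2 had 16.9, 15.6 and 13.4 FPKM in the CL rats and 24.6, 18.6 and 13.5 FPKM in the FL rats. Jak1 thus had its highest value in FL12, where Stat2 had its lowest FL value. Tyk2 (0.60) and Jak2 (0.61) passed the adjusted threshold under 2-fold. No gene of the group was called after median scaling, quantile normalization or removal of FL12.

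Of 8 other interferon regulatory factors and their binding partners, 1 was called higher and 0 lower, with a median of 0.07. It was Irf5, a factor of macrophages and B cells that acts after Toll-like receptors, with 1.56, 1.23 and 1.45 FPKM in the CL rats and 3.94, 4.74 and 4.45 FPKM in the FL rats. The FL rats were close to one another and far above the controls. Its mean log2 difference, FL against CL, was 1.57 ± 0.16 (SE) and the limma adjusted p 0.00218. Irf5 was called under all 14 alternatives run for it. Irf8, a factor of the myeloid lineage that is named after its values were seen, had a log2 fold change just under the limit, at 1.0, with a limma adjusted p of 0.00414. FL12 was the lowest FL rat in 0 of these 8 genes, beside 24.8% of all genes tested.

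Among 15 sensors of nucleic acids and their adaptors, 3 were called higher and 0 lower, with a median of 0.73. The calls higher were 2 and the median 0.53 after median scaling, and 1 and 0.28 after quantile normalization. Tlr8, an endosomal receptor for RNA, had 0.97, 1.0 and 1.25 FPKM in the CL rats and 3.01, 5.11 and 3.27 FPKM in the FL rats. On the log2 scale its fold change was 1.7 ± 0.23 (SE), with a limma adjusted p of 0.0049, and it was called under all 14 alternatives run for it. Tmem173 encodes STING, the adaptor for DNA in the cytosol, and had 0.32, 0.19 and 0.17 FPKM in the CL rats and 0.70, 0.95 and 1.43 FPKM in the FL rats. It was highest in FL12, while FL12 was the lowest FL rat in 10 of the 15 sensors and adaptors (66.7%), beside 24.8% of all genes tested. The log2 fold change of Tmem173 was 1.76 ± 0.34 (SE, limma adjusted p = 0.0127). Without CL7 it was 1.64 and the call was lost (limma adjusted p = 0.0536). The call was also lost with a pseudocount of 1 (0.71) and quantile normalization (1.18, limma adjusted p = 0.0587). The call held in 10 of 13 alternatives, over which the adjusted p ran from 0.00997 to 0.0587. Zbp1, a sensor of Z-form nucleic acid that interferon itself induces, had 0.21, 0.40 and 0.22 FPKM in the CL rats and 1.17, 1.08 and 0.47 FPKM in the FL rats. Its estimated log2 fold change was 1.37 ± 0.39 (SE, limma adjusted p = 0.0446). The call of Zbp1 held in 3 of 13 alternatives and was lost without CL5 (adjusted p = 0.122), CL6 (0.0612), CL7 (0.142), FL2 (0.0884) or FL5 (0.138), where the log2 fold changes were 1.25, 1.59, 1.27, 1.16 and 1.21. Over its alternatives the adjusted p ran from 0.0251 to 0.276. Ddx58, which encodes the RNA sensor RIG-I and was the most abundant of the list, had a log2 fold change of -0.46 and a limma adjusted p of 0.0642. Its lowest value was 10.0 FPKM, in FL12, where the controls had 16.9 to 17.1 FPKM.

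None of 8 negative regulators tested was called, with 3 at an unadjusted p under 0.05 in limma, and the median was 0.46. The count was also 0 after median scaling, quantile normalization or removal of FL12. Ptpn6 and Pias1 were the most abundant. Ptpn6, a phosphatase of blood cells that damps cytokine signals, had 6.64, 6.94 and 6.31 FPKM in the CL rats and 9.67, 11.5 and 9.87 FPKM in the FL rats. Its estimate of 0.63 ± 0.12 (SE) passed the adjusted threshold (limma adjusted p = 0.0126) but was under 2-fold. Pias1, an inhibitor of STAT signalling, had 6.81, 6.74 and 7.14 FPKM in the CL rats and 8.20, 8.24 and 7.98 FPKM in the FL rats. The feedback gene Usp18, named after its values were seen, also had FL2 and FL5 above and FL12 below every control. That order was seen in 1.19% of all genes tested. Usp18 had 3.90, 3.26 and 4.63 FPKM in the CL rats and 6.47, 5.67 and 2.63 FPKM in the FL rats.

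The 39 other antiviral interferon-stimulated genes tested had 6 calls higher and 0 lower, and a median of 0.26, close to the 0.29 of all genes. After median scaling the calls higher were 3 and the median 0.04, and after quantile normalization 3 and -0.03. The calls included Ifitm1 and Ifitm2, which encode membrane proteins that hinder viral entry. Ifitm1 had 11.2, 12.6 and 15.2 FPKM in the CL rats and 36.2, 47.6 and 31.5 FPKM in rats FL2, FL5 and FL12, and its log2 fold change was 1.55 ± 0.18 (SE, limma adjusted p = 0.00339). Ifitm2 had 2.11, 3.52 and 4.14 FPKM in the CL rats and 9.41, 10.9 and 11.2 FPKM in the FL rats, and its log2 fold change was 1.71 ± 0.23 (SE, limma adjusted p = 0.00491). These 2 genes are similar in sequence and may share reads. Lgals3bp, a secreted galectin-binding glycoprotein, had 6.22, 5.21 and 6.06 FPKM in the CL rats and 13.7, 21.6 and 14.9 FPKM in the FL rats, with a log2 fold change of 1.48 ± 0.18 (SE, limma adjusted p = 0.00414). Ifitm1, Ifitm2 and Lgals3bp were called under all 14 alternatives run for them.

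Other calls of that list were lost under several settings. Epsti1 had 0.89, 1.35 and 1.0 FPKM in the CL rats and 2.34, 3.41 and 1.93 FPKM in the FL rats. On the log2 scale its fold change was 1.15 (limma adjusted p = 0.0204), and the call was lost without CL5 (adjusted p = 0.0679), CL7 (0.0773) or FL5 (0.0654), with log2 fold changes of 1.04, 1.11 and 0.93. With all 6 rats it was lost with a pseudocount of 1 (0.76), median scaling (0.94) and quantile normalization (0.69). For this gene the call held in 8 of 14 alternatives, with adjusted p from 0.0178 to 0.122. Isg20, an exonuclease, had 0.61, 1.06 and 1.13 FPKM in the CL rats and 2.43, 2.01 and 1.52 FPKM in the FL rats. Its estimated log2 fold change was 1.03 (limma adjusted p = 0.0388), and the call was lost without CL5 (adjusted p = 0.0955), CL6 (0.0698), CL7 (0.0716), FL2 (0.0755) or FL5 (0.11), where the log2 fold changes were 0.78, 1.14, 1.18, 0.88 and 1.01. With all 6 rats it was lost with a pseudocount of 1 (0.63), median scaling (0.82) and quantile normalization (0.53). It was also lost with no filter on low values (adjusted p = 0.0659) and with no trend (0.0559). Among the alternatives 4 of 14 kept it, with adjusted p from 0.0376 to 0.297.

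FL12 was the lowest FL rat in 28 of these 39 genes, a share of 71.8% next to 24.8% of all genes tested. The most abundant gene of the list, Ifi27, had 101, 71.9 and 81.2 FPKM in the CL rats and 72.2, 88.8 and 54.7 FPKM in rats FL2, FL5 and FL12. It too was lowest in FL12, but its FL2 value was under that of CL5 and CL7. FL12 was below every control in 14 of the 39, where the share was 13.7% of all genes tested. The order of Irf7, Mx1, Isg15 and Ifit3, with FL2 and FL5 above and FL12 below every control, was seen in 3 of the 39. The share of all genes tested with that order was 1.19%. XAF1, which is not counted in the 39, had it too. CL6 was the lowest control in 16 of the 39, or 41.0%, beside 22.2% of all genes tested. Without FL12 the list had 7 calls higher, 0 lower and a median of 0.36, where the median of all genes was 0.26.

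The 19 tested genes that interferon gamma mainly induces had 4 calls higher and 0 lower, with a median of 0.65. It was 0.435 after median scaling and 0.25 after quantile normalization, with 3 and 1 calls. Ciita, the master regulator of MHC class II genes, had 0.31, 0.29 and 0.46 FPKM in the CL rats and 1.65, 1.46 and 1.32 FPKM in the FL rats. Its log2 fold change was 1.81 (limma adjusted p = 0.00487). Psmb10, an immunoproteasome subunit, had 5.29, 4.52 and 4.69 FPKM in the CL rats and 12.7, 8.21 and 11.9 FPKM in the FL rats, with a log2 fold change of 1.14 (limma adjusted p = 0.0069). Gbp5, a guanylate-binding protein, had 0.94, 1.18 and 0.72 FPKM in the CL rats and 2.95, 3.41 and 2.01 FPKM in the FL rats, with a log2 fold change of 1.46 (limma adjusted p = 0.0101). All FL rats were above all controls in these genes. With a pseudocount of 1, Ciita (0.87) and Gbp5 (0.95) were under the 2-fold limit. Psmb10 was under it after median scaling (0.92) and quantile normalization (0.87), as was Gbp5 after the latter (0.98). Gbp3 had 0.15, 0.11 and 0.04 FPKM in the CL rats and 0.33, 0.62 and 0.51 FPKM in the FL rats. On the log2 scale its fold change was 1.56 (limma adjusted p = 0.0295), and the call was lost without CL5 (adjusted p = 0.0527), CL6 (0.0692), CL7 (0.101), FL5 (0.0982) or FL12 (0.0749), where the log2 fold changes were 1.74, 1.62, 1.32, 1.40 and 1.52. It held in 6 of 13 alternatives, with adjusted p from 0.0224 to 0.13. FL12 was the lowest FL rat in 15 of the 19, as in 7 of the 9 interferon-stimulated genes and beside 24.8% of all genes tested. FL2 and FL5 were above and FL12 below every control in 1 of the 19, and in 1 of the 6 signal transducers.

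Taking the 7 tested pathway lists together, 15 of 101 genes were called higher (14.9%) and 0 lower. In all 15 every FL value was above every CL value, where 40.5% of all genes tested did not overlap. The call rule itself favours such genes, so their separation adds no support. After median scaling the count called higher was 9 of 101 (8.91%), beside 5.56% of all genes tested. After quantile normalization it was 6 of 101 (5.94%), beside 3.05%. Without FL12 it was 18 of 101 (17.8%), beside 6.5%. Whether the share differs from the 9.29% of all genes was not tested. The contrast with the 9 genes is a matter of counts only, since the difference between the lists was not tested either.

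**Figure D3:**
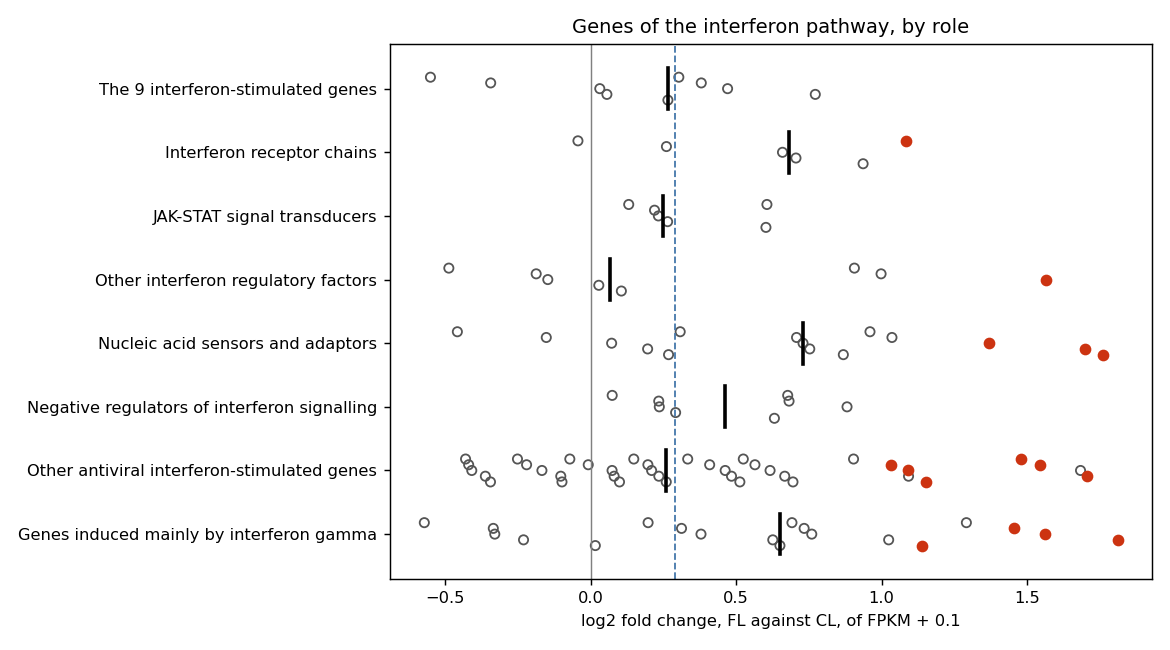
log2 fold change of FPKM + 0.1, FL against CL (horizontal axis), of each tested gene of the interferon pathway by list, with called genes in red and the others as open circles. Black bars are list medians and the dashed line is the median of all genes tested, 0.29, near which the 9 interferon-stimulated genes (median 0.27) and the other antiviral genes (0.26) lie.

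Markers of cell types were measured beside these genes. Of 10 macrophage and Kupffer cell markers 4 were called higher in FL and 0 lower, and their summed level was 139, 141 and 142 FPKM in the CL rats and 298, 279 and 191 FPKM in rats FL2, FL5 and FL12. FL12 had the lowest FL value in 8 of the 10, beside 24.8% of all genes tested. The most abundant, Clec4f, had 49.9, 43.2 and 48.4 FPKM in the CL rats and 66.6, 57.4 and 26.3 FPKM in the FL rats, the arrangement seen in Irf7, Mx1, Isg15 and Ifit3. The 4 called markers did not have that arrangement, since all were above every control in FL12 too. Marco had 8.74, 14.1 and 12 FPKM in the CL rats and 79.0, 43.9 and 31.5 FPKM in the FL rats. Cd68 had 11.6, 12.4 and 11.2 FPKM in the CL rats and 35.8, 48.5 and 31.8 FPKM in the FL rats. Csf1r had 8.93, 8.26 and 8.10 FPKM in the CL rats and 18.0, 22.45 and 15.8 FPKM in the FL rats. These 3 were lowest of the FL rats in FL12, but Lyz2 was highest there, with 2.71, 4.88 and 2.11 FPKM in the CL rats and 23.2, 26.25 and 34.0 FPKM in the FL rats. No marker of this list was at 0 in any rat, and their part in the result was not tested. The called markers are named after their values were seen.

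Markers of other cells did not all share the low value of FL12. Plasmacytoid dendritic cells are strong makers of type I interferon, and their 7 listed markers, led by Tcf4, summed to 2.78, 2.48 and 2.90 FPKM in the CL rats and 4.57, 7.07 and 7.66 FPKM in rats FL2, FL5 and FL12. Tcf4 is not specific to these cells, and without it the sums were 0.48, 0.39 and 0.45 FPKM in the CL rats and 0.98, 1.81 and 1.41 FPKM in the FL rats. Markers of T and NK cells, led by Cd4, which rat macrophages also express, summed to 12.9, 11.04 and 11.9 FPKM in the CL rats and 23.9, 31.5 and 24.7 FPKM in the FL rats. Without Cd4 their sums were 2.97, 2.77 and 3.69 FPKM and 5.71, 7.65 and 3.40 FPKM. FL12 was then the lowest FL rat, whereas with Cd4 it was FL2. Stellate cell and myofibroblast markers, led by Col3a1, summed to 80.0, 86.5 and 78.6 FPKM in the CL rats and 196, 534 and 483 FPKM in the FL rats. Among the FL rats this sum was lowest in FL2, still above every control, and highest in FL5, whereas the sum of the 9 interferon-stimulated genes was lowest in FL12.

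Values of the remaining lists follow. Conventional dendritic cell markers, led by Zbtb46, summed to 2.48, 2.21 and 2.20 FPKM in the CL rats and 3.60, 5.11 and 4.51 FPKM in rats FL2, FL5 and FL12. Neutrophil markers, led by S100a8, summed to 0.41, 1.07 and 1.26 FPKM in the CL rats and 5.56, 2.39 and 4.91 FPKM in the FL rats, with Mpo and Elane listed at 0 in all CL rats. B and plasma cell markers, led by Cd79a, summed to 0.69, 0.83 and 0.72 FPKM in the CL rats and 2.09, 1.65 and 1.2 FPKM in the FL rats. The sums of all 3 lists were higher in each FL rat than in any control. Within the conventional dendritic cell list 5 of 7 estimates were positive, and 2, Xcr1 (-0.38) and Batf3 (-0.23), were negative. Its 1 call was Itgax, with a mean of 0.19 FPKM in CL and 1.74 FPKM in FL. These genes are named after their values were seen. Endothelial markers, led by Kdr, summed to 79.3, 76.8 and 69.3 FPKM in the CL rats and 93.2, 80.4 and 88.8 FPKM in the FL rats. Cholangiocyte markers, led by Spp1, which macrophages also express, summed to 5.75, 10.6 and 6.32 FPKM in the CL rats and 12.7, 68.7 and 42.4 FPKM in the FL rats. Without Spp1 the groups overlapped, with 5.38, 7.75 and 5.58 FPKM in the CL rats and 5.38, 8.06 and 11.3 FPKM in the FL rats. The part of these cells in the values of the interferon-stimulated genes was not tested.

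The promoters of the genes were read for the elements through which interferons act. Promoter sequences from RefSeq (build GRCr8), each from 250 bases before to 50 bases after the gene's start, were matched for 6 of the 9, Irf7, Irf1, Mx1, Oas1a, Ifit3 and Rsad2, and not for Mx2, Ifit2 and Isg15. The letters of the interferon-stimulated response element, GAAANNGAAA on either strand, were found in 4 of the 6, Irf7, Oas1a, Ifit3 and Rsad2. They occur in 3.92% of the 33469 promoters of the table. The letters of the gamma-activated site, TTCNNNGAA, were found in Irf1 and Oas1a, and occur in 8.87% of all promoters. The kappa B letters GGGNNNNNCC were in Irf7, Irf1, Mx1 and Rsad2, and in 47.3% of all promoters. The windows below, 5′ to 3′ on the strand of the gene, are shown because they carry the response element or gamma-activated letters close to the start, with the matched letters in capitals. A match on the other strand reads TTTCNNTTTC, and Oas1a holds 2 overlapping matches.
Irf7, chr1:205800063-205800112, minus strand: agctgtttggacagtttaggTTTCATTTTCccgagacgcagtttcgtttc
Oas1a, chr12:41330405-41330460, plus strand: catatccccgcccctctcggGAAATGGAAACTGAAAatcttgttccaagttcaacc
Ifit3, chr1:241527262-241527311, plus strand: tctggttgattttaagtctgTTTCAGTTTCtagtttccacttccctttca
Rsad2, chr6:48788238-48788287, minus strand: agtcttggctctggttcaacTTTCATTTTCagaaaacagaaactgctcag
Irf1, chr10:38417773-38417821, plus strand: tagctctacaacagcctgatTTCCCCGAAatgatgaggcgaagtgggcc

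Counted from the start of the gene, the element began at -69 in Irf7, -44 in Ifit3 and -147 in Rsad2. In Oas1a the matches began at -41 and -35, and the gamma-activated letters of Irf1 began at -142. Genes with the element did not share 1 profile over the rats. Irf7 and Ifit3 were lowest in FL12, and so was Oas1a, but Rsad2 was lowest in CL6 and highest in FL5. A match describes these letters only and shows neither binding nor a cause.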

How the data were processed

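Liver RNA of 6 rats (3 CL, 3 FL) was analysed. The authors trimmed reads with the FASTX-Toolkit, aligned them with TopHat2 to a genome they name GRCH38, although the gene identifiers are Ensembl's for the rat, counted uniquely mapped reads and deposited FPKM per gene. The annotation release is not given in the sources used here. Of the table's value columns, 2 matched no sample and were not used.

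Genes whose mean over the 6 rats reached 0.1 FPKM were tested on log2(FPKM + 0.1) with limma 3.58.1 (R 4.3.3), using a trended prior variance, Benjamini-Hochberg adjustment over all 14864 genes, and thresholds of adjusted p under 0.05 and 2-fold. Limma was chosen because FPKM are not counts. It was tested on simulated data. Summaries used Python 3.11.15. Alternatives were pseudocounts of 1 and 0.01, no filter or a mean of at least 1 FPKM, median scaling, quantile normalization, no trend, a robust prior, no fold limit, and each rat left out.

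The depth of each library is not given in the sources used here, so no counting interval is given. The steps between low values gave rough depths relative to CL5 of 0.642 (CL6), 0.835 (CL7), 0.671 (FL2), 0.744 (FL5) and 0.671 (FL12). FPKM summed to between 272110 and 340467 per rat.

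Named were the 9 genes, every called gene of each pathway list (at most 6, otherwise its 2 most abundant genes), the most abundant gene of each marker list and those at 0 in all rats, and the 3 closest profiles. Some genes of the lists are counted but not reported here by name. Members and lists were chosen with earlier results of these data known. Each library is labelled as a different rat's liver. Replicate numbers do not pair the groups.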

Additional observations from a re-analysis of the deposited data

How the results depend on the processing

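No paired analysis was possible because the CL and FL libraries come from different rats. Of the estimates for the 9 genes under the alternatives, 109 kept direction and side of the threshold, 16 changed sign and 1, Mx1 without FL12 (1.04), passed it. Of those for the 15 called pathway genes, 156 kept the call and 50 lost it without changing sign. With 1 rat left out, the calls among the 9 ranged from 0 to 1 higher and from 0 to 0 lower. Over all genes they ranged from 736 to 1833 higher and from 80 to 160 lower. All genes called higher numbered 462 with a pseudocount of 1, 854 with a mean of at least 1 FPKM, 826 with median scaling, 453 with quantile normalization and 2518 with no fold limit. Those called lower numbered 72 with a pseudocount of 1, 231 with quantile normalization and 288 with no fold limit. The share of calls that were higher was 90.9%, and 82.0% with median scaling and 66.2% with quantile normalization. Signs changed under quantile normalization for Irf7 (-0.024), Mx1 (-0.070), Isg15 (-0.19), Ifit2 (-0.24) and Ifit3 (-0.43), and under median scaling for Ifit2 (-0.16) and Ifit3 (-0.18). With 1 rat left out, estimates ranged from -0.18 to 0.90 for Irf7, -0.016 to 1.04 for Mx1, -0.74 to 0.042 for Oas1a, -0.11 to 0.20 for Ifit2 and -0.21 to 0.46 for Ifit3, and without a change of sign from 0.19 to 0.64 for Irf1, -0.99 to -0.18 for Mx2, 0.09 to 0.67 for Isg15 and 0.14 to 1.18 for Rsad2. Ifit2 was -0.03 without CL6 and -0.11 without FL12. Ifit3 was -0.01 without CL6, -0.03 without CL7, -0.16 without FL2 and -0.21 without FL5. Apart from the use of fewer rats or genes, the cause was not tested. With 3 rats a group and values as deposited, a 2-fold change in at least 1 direction lay within the 95% intervals of all 9 genes but Ifit2 and Ifit3.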
